A study of Homo sapiens with 12 samples.

Results

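The proton pump of the lysosome and the proteins of its membrane were followed across 4 treatment groups of 786-O, an established cell line of human renal carcinoma. The set was a list of 44 gene symbols, listed by name with earlier results of these data known: 22 genes of the vacuolar H+-ATPase (V-ATPase), of which 11 encode subunits of the V1 sector, 9 subunits of the V0 sector and 2 accessory proteins, 6 membrane glycoproteins, 6 ion channels with their partners, 8 transporters, and CLN3 and TMEM192. All 44 were found among the 17085 genes counted. The cells received dimethylsulfoxide (DMSO) as the control, 5 µM everolimus, an inhibitor of mTOR, 1.5 µM SGI-1027, which inhibits DNA methyltransferases, or both drugs together, each for 24 h, with 3 libraries in each group. For everolimus alone the protocol text of the sample records names 10 µM, whereas their treatment field gives 5 µM. A single cell line was used throughout, and separate cultures are not recorded for the libraries of a group, so p-values measure the spread between these libraries, which may be technical.

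The V-ATPase acidifies the lysosome. Its V1 sector, on the cytosolic side, hydrolyses ATP and turns a rotor, and the V0 sector in the membrane uses that rotation to carry protons inward. The resulting gradient drives transporters that return amino acids, sugars, peptides and cholesterol to the cytosol, while channels for calcium, potassium and chloride balance the charge and heavily glycosylated proteins line the inner face of the membrane. The kinase complex mTORC1 is recruited to this membrane when nutrients are plentiful, and factors of the MiT/TFE family (TFEB, TFE3, MITF, TFEC), which mTORC1 restrains, bind E-box sequences near the starts of many lysosomal genes.

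Promoters are shown for members whose sequence upstream of the start holds that E-box, because the set was compared across an mTOR inhibitor. RefSeq promoter windows (build GRCh38.p14, 250 bases before to 50 bases after each start) were matched for 34 of the 44 members by symbol. The motif CACGTG, which reads the same on both strands, lay in the windows of 10 of the 34 (29.4%), against 2396 of 27305 symbols in the whole table (8.77%). The longer palindrome TCACGTGA, which contains it, lay in 6 of 34 (17.6%), against 321 of all symbols (1.18%). These are descriptions of letters in windows and no test was made of them. Each line gives 80 bases 5′ to 3′ on the gene's own strand, ending just before the start except for LAMP1, whose stretch begins 200 bases before it, and capitals mark each E-box, with its flanking T and A where the longer form is present.
MCOLN1 (chr19:7522544-7522623, plus strand): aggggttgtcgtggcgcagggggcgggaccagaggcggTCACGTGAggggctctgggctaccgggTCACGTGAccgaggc
CLCN7 (chr16:1475029-1475108, minus strand): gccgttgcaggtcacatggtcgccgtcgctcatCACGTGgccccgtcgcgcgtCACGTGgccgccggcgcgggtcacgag
MFSD1 (chr3:158801974-158802053, plus strand): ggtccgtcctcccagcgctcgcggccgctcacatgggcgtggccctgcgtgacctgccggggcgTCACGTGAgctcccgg
LAMP1 (chr13:113297039-113297118, plus strand): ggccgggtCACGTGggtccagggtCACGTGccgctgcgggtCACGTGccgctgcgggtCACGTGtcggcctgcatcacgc
ATP6V0B (chr1:43974880-43974959, plus strand): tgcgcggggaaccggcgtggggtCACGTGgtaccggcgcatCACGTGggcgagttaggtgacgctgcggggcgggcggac
ATP6V0D1 (chr16:67481158-67481237, minus strand): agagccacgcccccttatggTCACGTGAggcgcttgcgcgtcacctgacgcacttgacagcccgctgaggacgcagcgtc
ATP6V1G1 (chr9:114587689-114587768, plus strand): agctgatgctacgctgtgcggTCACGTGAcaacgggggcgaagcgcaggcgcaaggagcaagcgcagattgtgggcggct
MCOLN1 carried 2 copies of the longer form in these 80 bases, and LAMP1 had 6 E-boxes in its whole window, 4 of them in the stretch shown. The other members with an E-box were ATP6V0E2, CD63 and CLN3. By role a window with the motif was found for 4 of 15 matched pump genes, 3 of 13 channels and transporters and 2 of 4 glycoproteins. Some genes had several windows. ATP6V1A, ATP6V1B2, ATP6V1C1, ATP6V1E2, ATP6V1H, ATP6V0D2, ATP6V0E1, LAMP2, LAMP3 and SLC15A3 were not matched.

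Libraries held 37046231 to 41516976 counts. The members took 0.291% to 0.296% of these counts in the DMSO libraries and 0.41% to 0.418% in the combination libraries. DMSO replicate 1 and SGI-1027 replicate 3 stood apart from the other libraries of their groups: a chi-square per gene between replicates was 10.463 and 13.361 in the pairs with the former and 16.698 and 16.399 in the pairs with the latter, against 3.037 to 5.526 in all other pairs. Of 9 genes that mark a renal carcinoma or epithelial line, 8 had a mean of at least 1 CPM (a count scaled to its library size) in every group, and CA9 lay below. Levels below are CPM normalized by the trimmed mean of M values (TMM), differences are log2 fold changes ± SE, and a call was an adjusted p under 0.05 in the quasi-likelihood test of edgeR after Benjamini-Hochberg adjustment over all 12841 genes tested. ATP6V1C2 had only 1 to 6 counts per library and was not tested, which left 43 members. In RNA from whole cultures, fewer cells of a kind and less RNA per cell cannot be told apart.

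Most members were higher under the combination than under DMSO, and fewer were higher under either drug alone. With both drugs 34 of 43 tested members rose and 2 fell, where 32.8% of all tested genes were called higher and 33.4% lower. With SGI-1027 27 rose and 4 fell, against 32.0% and 30.6% of all genes. With everolimus 16 rose and 6 fell, against 27.2% and 29.2% of all genes, so that the count of higher members was then closer to the background. The median log2 fold change of the members reached 0.38 for the combination, 0.20 for SGI-1027 and 0.05 for everolimus, beside 0.01, 0.02 and 0.00 over all tested genes. Without SGI-1027 replicate 3 the SGI-1027 counts were 22 higher and 4 lower, and without DMSO replicate 1 they were 24 and 4. For the combination the counts were 34 and 4 without SGI-1027 replicate 3 and 34 and 3 without DMSO replicate 1, and for everolimus they were 18 and 8, and 17 and 5. Under upper-quartile scaling the everolimus counts became 21 higher and 2 lower, and the higher calls over all genes went from 48.2% to 60.7% of calls, so directions of small everolimus differences depend on the scaling. The 3 treated groups share the same DMSO libraries.

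**Figure D1:**
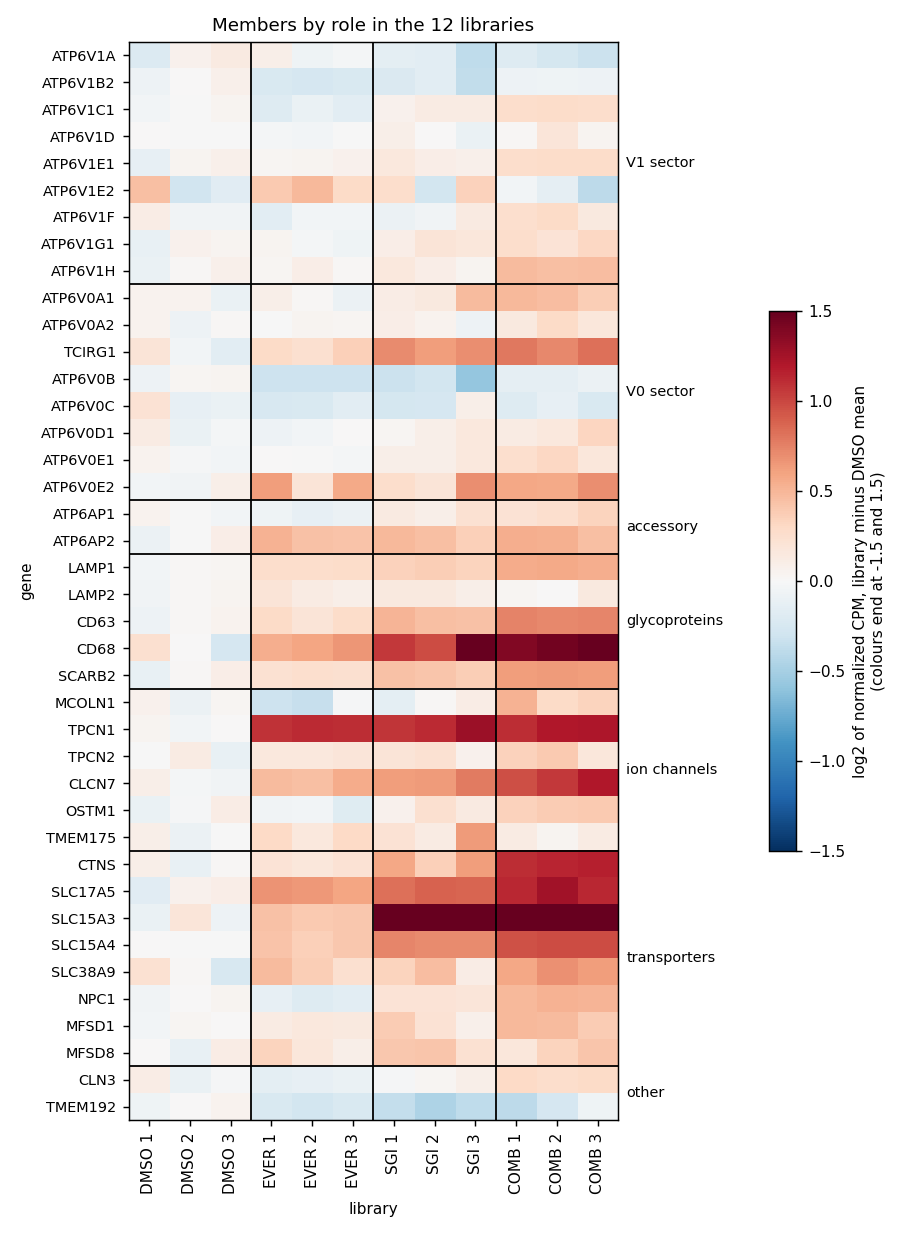
Heat map of the 40 members with a mean of at least 1 CPM (rows, by role) in the 12 libraries (columns), coloured by log2 normalized CPM minus the mean of the DMSO libraries. The combination columns are red in most rows, and the TPCN1 row is about equally red in all 3 treated groups. ATP6V1A, ATP6V1B2, ATP6V1E2, ATP6V0B, ATP6V0C and TMEM192 lie below the DMSO mean in every combination column.

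Some members moved by at least a factor of 2. At the cut-off of the study's methods (unadjusted p under 0.05 and absolute log2 fold change of at least 1), 9 members were higher with the combination, ATP6V0D2, ATP6V1G2, CD68, CLCN7, CTNS, LAMP3, SLC15A3, SLC17A5 and TPCN1, where 7.25% of all tested genes passed it in that direction. SGI-1027 alone took 5 past it, ATP6V1G2, CD68, LAMP3, SLC15A3 and TPCN1, against 6.25% of all genes. Everolimus took 2 past it, ATP6V1G2 and TPCN1, against 3.89%. No member passed it in the lower direction with any treatment. Every library of the combination lay above every other library for 23 of the 43 members, and this held for 9.75% of all tested genes.

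In the V1 sector, which hydrolyses ATP, the combination raised 6 of 10 tested subunit genes and lowered 1, with a median log2 fold change of 0.24. Over all tested genes 32.8% were called higher and 33.4% lower. ATP6V1H, the subunit that links V1 to V0 and regulates the activity of the pump, had 45.9, 50.1 and 52.2 CPM in the DMSO libraries, 50.2, 52.8 and 50.1 with everolimus, 54.9, 52.9 and 50.6 with SGI-1027 and 68.7, 67.2 and 67.9 with both drugs. All 3 combination libraries lay above all others, while the single-drug libraries overlapped those of DMSO. ATP6V1H rose with the combination by 0.46 ± 0.05 on the log2 scale (edgeR, adjusted p = 3.31e-07), and differed by 0.05 ± 0.05 with everolimus and 0.10 ± 0.05 with SGI-1027. ATP6V1C1, whose product leaves and rejoins the complex when V1 and V0 come apart, gave 69.9, 71.6 and 74.2 CPM in DMSO, 63.0, 67.3 and 64.3 with everolimus, 75.2, 78.2 and 78.1 with SGI-1027 and 86.3, 87.2 and 86.1 with both. Its everolimus libraries were below those of DMSO and its combination libraries above all others. ATP6V1C1 thus fell by 0.15 ± 0.04 with everolimus alone (edgeR, adjusted p = 0.00627) and rose by 0.27 ± 0.04 with the combination (edgeR, adjusted p = 1.97e-05). Under upper-quartile scaling its everolimus difference was -0.07 and lost the call (edgeR, adjusted p = 0.141).

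The subunits that form the nucleotide-binding head of V1 did not follow the rest of the sector. ATP6V1A, the catalytic subunit, had 34.6, 41.8 and 43.8 CPM in DMSO, 42.4, 38.1 and 39.0 with everolimus, 35.9, 35.6 and 30.6 with SGI-1027 and 34.9, 33.3 and 31.8 with both drugs. Its combination libraries were below all everolimus libraries but overlapped the lowest DMSO library. ATP6V1A fell by 0.27 ± 0.08 with the combination against DMSO (edgeR, adjusted p = 0.00710), and this call was lost without DMSO replicate 3 (log2 fold change -0.19, edgeR, adjusted p = 0.0577). ATP6V1B2, the noncatalytic partner in that head, had 99.3, 105 and 111 CPM in DMSO, 89.9, 88.0 and 89.9 with everolimus, 90.7, 94.1 and 81.2 with SGI-1027 and 99.4, 100.2 and 99.6 with both drugs. Both single-drug groups lay below every DMSO library, and the combination libraries lay above the single-drug libraries and near the lowest DMSO library. ATP6V1B2 fell by 0.23 ± 0.05 with everolimus (edgeR, adjusted p = 8.15e-04) and by 0.25 ± 0.05 with SGI-1027 (edgeR, adjusted p = 4.65e-04), and its difference with both drugs was -0.08 ± 0.05 (edgeR, adjusted p = 0.208).

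Of 4 subunits in the stalks, 3 were called higher with the combination, where 32.8% of all tested genes were. With the combination ATP6V1E1 rose by 0.27 ± 0.05, ATP6V1G1 by 0.26 ± 0.06 and ATP6V1F by 0.23 ± 0.06 on the log2 scale, while ATP6V1D, of the central rotor stalk, differed by 0.08 ± 0.06 and was not called. ATP6V1E1 and ATP6V1F were not called with either single drug. Annotated pseudogenes share the names of ATP6V1E1 (1 copy) and ATP6V1G1 (5 copies), and outside this sector of ATP6V0C (4), ATP6V0E1 (4) and MFSD1 (1). How reads shared with such copies were counted is not given.

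In the V0 sector the combination raised 7 of 9 subunit genes, again with a median log2 fold change of 0.24, and lowered none. The shares over all tested genes were 32.8% higher and 33.4% lower. TCIRG1 encodes the a3 isoform of subunit a, which forms the proton path and is known from osteoclasts and secretory lysosomes. Its levels were 46.8, 40.0 and 36.8 CPM in DMSO, 50.0, 48.3 and 52.4 with everolimus, 67.0, 63.4 and 66.4 with SGI-1027 and 71.2, 67.3 and 72.8 with both drugs. The ranges of the 4 groups did not overlap, and the order ran DMSO, everolimus, SGI-1027, combination. TCIRG1 rose by 0.29 ± 0.07 with everolimus (edgeR, adjusted p = 0.00155), by 0.67 ± 0.07 with SGI-1027 (edgeR, adjusted p = 1.04e-07) and by 0.77 ± 0.07 with the combination (edgeR, adjusted p = 1.14e-08), and the last of these did not differ from SGI-1027 by the test (0.10 ± 0.07, edgeR, adjusted p = 0.305).

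ATP6V0B, a proteolipid of the rotating ring, went the other way. It had 69.9, 75.0 and 75.6 CPM in DMSO, 59.1, 59.2 and 59.3 with everolimus, 58.9, 60.9 and 49.2 with SGI-1027 and 66.8, 67.0 and 69.2 with both drugs. The single-drug libraries were the lowest, and the combination libraries lay above all of them and below all DMSO libraries. ATP6V0B fell by 0.31 ± 0.06 with everolimus (edgeR, adjusted p = 2.86e-04) and by 0.38 ± 0.06 with SGI-1027 (edgeR, adjusted p = 2.90e-05), and differed by -0.12 ± 0.06 with both (edgeR, adjusted p = 0.0912). ATP6V0C, the main proteolipid of the ring, had 118 CPM in DMSO replicate 1 and 93.1 and 95.0 in the other DMSO libraries, against 84.2 to 108 in the 9 treated libraries. Its difference with the combination was -0.19 ± 0.09 and was not called. It was -0.07 without DMSO replicate 1 (edgeR, adjusted p = 0.471) and was called without DMSO replicate 2 (-0.24, edgeR, adjusted p = 0.0331) or 3 (-0.23, edgeR, adjusted p = 0.0458) or SGI-1027 replicate 3 (-0.19, edgeR, adjusted p = 0.0104). The call of ATP6V0C with everolimus (-0.22 ± 0.09, edgeR, adjusted p = 0.0422) was lost without DMSO replicate 1 (-0.10, edgeR, adjusted p = 0.275) and in 5 further fits without a library.

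Among genes that encode alternative forms of a subunit, the form that dominated in DMSO also dominated in every treated group. As a share of the FPKM (fragments scaled by gene length and library size) summed over the genes of a subunit, which takes gene length into account, ATP6V1C1 held at least 99.5% of subunit C in every library, ATP6V1E1 at least 98.4% of subunit E, ATP6V1G1 at least 98.5% of subunit G, ATP6V0D1 at least 99.7% of subunit d and ATP6V0E1 at least 96.3% of subunit e. These shares cover listed genes only and leave out ATP6V0A4, a further gene of subunit a. Its differences were 0.44 ± 0.26 with everolimus, 0.36 ± 0.27 with SGI-1027 and -0.05 ± 0.28 with both, none of them called. Subunit a was the exception, with 3 listed genes of comparable level. TCIRG1 held 52.8% ± 2.36 (SD, n = 3) of it in DMSO, 57.5% ± 1.41 with everolimus, 62.1% ± 0.657 with SGI-1027 and 60.9% ± 1.84 with both drugs. ATP6V0A2 went from 28.5% ± 2.07 to 25.7% ± 0.701, 21.4% ± 1.61 and 22.0% ± 1.32 in the same order, and ATP6V0A1 from 18.8% ± 1.09 to 16.8% ± 1.14, 16.5% ± 2.03 and 17.1% ± 0.855. Each TCIRG1 share in the treated libraries lay above each DMSO share, and the ranges of SGI-1027 and the combination overlapped. In absolute terms ATP6V0A1 had 16.2, 16.3 and 14.6 CPM in DMSO, 16.6, 15.9 and 14.8 with everolimus, 17.0, 17.3 and 21.7 with SGI-1027 and 21.9, 21.6 and 20.2 with both drugs, and it rose by 0.44 ± 0.09 with the combination (edgeR, adjusted p = 2.31e-04). ATP6V0A2 had 17.1, 15.6 and 16.7 CPM in DMSO, 16.4, 16.9 and 16.8 with everolimus, 17.6, 17.1 and 15.6 with SGI-1027 and 18.2, 20.0 and 18.5 with both. Only the combination libraries of ATP6V0A2 lay above the other groups, by 0.20 ± 0.07 against DMSO (edgeR, adjusted p = 0.0153), a call lost without DMSO replicate 2 (0.17, edgeR, adjusted p = 0.0669) or combination replicate 2 (0.16, edgeR, adjusted p = 0.0705).

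**Figure D2:**
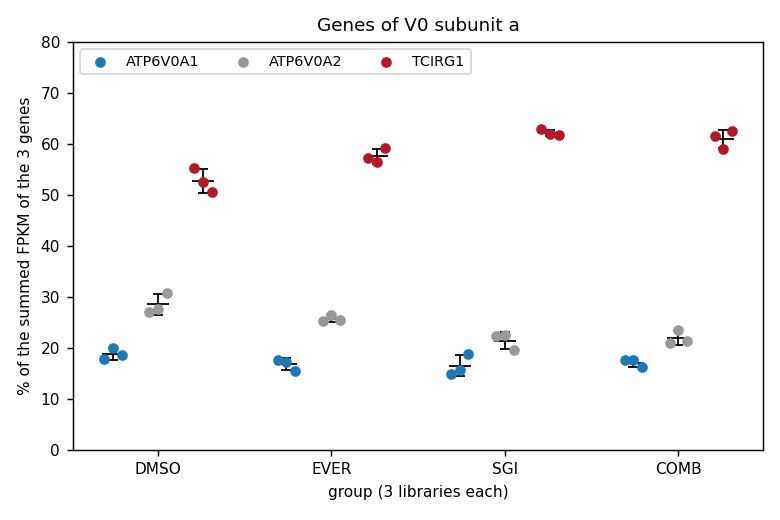
Share of the summed FPKM of the 3 listed genes of V0 subunit a held by each gene (%, y axis) in the 4 groups. A point marks each library and bars the mean ± SD of 3 libraries. The TCIRG1 share was 50.5% to 55.2% in DMSO and 61.7% to 62.9% with SGI-1027.

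The minor forms ATP6V0D2, ATP6V1G2 and ATP6V1C2 were near the limit of detection and are given as counts, ATP6V1E2 and ATP6V0E2 as CPM. ATP6V0D2, the osteoclast form of subunit d, had 0, 5 and 1 counts in the DMSO libraries, 2, 0 and 2 with everolimus, 4, 5 and 4 with SGI-1027 and 12, 15 and 16 with both drugs. The combination libraries held more counts than any other, and its log2 fold change against DMSO was 2.77 ± 0.65 (edgeR, adjusted p = 0.00103), a value that depends on 6 counts in the 3 DMSO libraries and was 4.50 without DMSO replicate 2, which holds 5 of them. ATP6V1G2, the neuronal form of subunit G, had 4, 3 and 6 counts in DMSO, 20, 9 and 13 with everolimus, 12, 21 and 13 with SGI-1027 and 11, 22 and 14 with both, so each treated library was above each DMSO library. ATP6V1G2 rose by 1.67 ± 0.52, 1.81 ± 0.51 and 1.82 ± 0.51 in these groups, and its everolimus call was lost without DMSO replicate 2 (1.43, edgeR, adjusted p = 0.0504) or everolimus replicate 1 (1.29, edgeR, adjusted p = 0.0705). In the GENCODE annotation its exons overlap a readthrough transcript with DDX39B on the same strand and NFKBIL1 on the other. ATP6V1C2, the alternative form of subunit C, had 1, 1 and 4 counts in DMSO and 2 to 6 in the treated libraries. ATP6V1E2, the testis form of subunit E, ranged from 1.60 to 2.93 CPM over all libraries without a call against DMSO. ATP6V0E2 had 7.70, 7.60 and 8.43 CPM in DMSO, 12.2, 9.01 and 11.7 with everolimus, 9.51, 9.07 and 12.8 with SGI-1027 and 11.8, 11.7 and 12.8 with both drugs. All treated libraries of ATP6V0E2 lay above those of DMSO, and it rose by 0.47 ± 0.13, 0.40 ± 0.13 and 0.61 ± 0.13, of which the SGI-1027 call was lost without SGI-1027 replicate 3 (0.23, edgeR, adjusted p = 0.0854).

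A list of osteoclast markers was looked at beside ATP6V0D2, of which 3 of 4 were among the genes counted. The summed level of these 3 was 0.157 to 0.170 CPM in DMSO, 0.676 to 0.705 with everolimus, 1.76 to 2.02 with SGI-1027 and 2.76 to 4.36 with the combination. ACP5, an acid phosphatase of the lysosome, had means of 0.0854 CPM in DMSO, 0.413 with everolimus, 1.51 with SGI-1027 and 3.11 with both drugs, and OSCAR, a receptor of osteoclasts, had 0.0773, 0.241, 0.369 and 0.441. CALCR, the calcitonin receptor, had at most 2 counts in any library.

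The 2 accessory proteins differed from each other. ATP6AP2, also known as the prorenin receptor and needed for assembly of the pump, rose by 0.46 ± 0.05 with everolimus, 0.42 ± 0.05 with SGI-1027 and 0.51 ± 0.05 with both drugs (edgeR, adjusted p = 4.71e-08 for the last). Its DMSO libraries held 104, 109.8 and 118 CPM and its treated libraries 142 to 161, without overlap. ATP6AP1, an assembly factor of V0, differed by -0.10 ± 0.05 with everolimus (edgeR, adjusted p = 0.0806) and rose by 0.15 ± 0.04 with SGI-1027 and by 0.26 ± 0.04 with the combination (edgeR, adjusted p = 4.60e-05).

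The membrane glycoproteins rose more than the pump, with a median log2 fold change of 0.25 with everolimus, 0.44 with SGI-1027 and 0.68 with both drugs. LAMP1, the most used marker of the lysosomal membrane, had 229, 239 and 240.3 CPM in DMSO, 284, 284 and 286 with everolimus, 299, 305 and 298 with SGI-1027 and 346, 349 and 344 with both drugs. These 4 ranges were separate and ordered DMSO, everolimus, SGI-1027, combination. LAMP1 rose by 0.27 ± 0.03, 0.35 ± 0.03 and 0.55 ± 0.03 on the log2 scale (edgeR, adjusted p = 7.32e-11 for the combination). LAMP2, its partner in the glycocalyx and a receptor of chaperone-mediated autophagy, had 238, 249.6 and 255 CPM in DMSO, 282, 269.9 and 262 with everolimus, 273, 273 and 262 with SGI-1027 and 253, 248 and 274 with both drugs. The combination libraries of LAMP2 overlapped those of every other group. LAMP2 differed from DMSO by 0.06 ± 0.04 with both drugs (edgeR, adjusted p = 0.224), and its calls with everolimus (0.13 ± 0.04, edgeR, adjusted p = 0.0151) and SGI-1027 (0.12 ± 0.04, edgeR, adjusted p = 0.0209) were lost without DMSO replicate 1 (0.10, edgeR, adjusted p = 0.0655, and 0.10, edgeR, adjusted p = 0.0775), without everolimus replicate 1 (0.10, edgeR, adjusted p = 0.0883), and without SGI-1027 replicate 1 (0.11, edgeR, adjusted p = 0.0658) or replicate 2 (0.11, edgeR, adjusted p = 0.0617).

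CD63, a tetraspanin of late endosomes and exosomes and the member with the highest FPKM in DMSO, rose by 0.25 ± 0.04, 0.47 ± 0.04 and 0.73 ± 0.04 with everolimus, SGI-1027 and both drugs. SCARB2, the receptor that delivers glucocerebrosidase to the lysosome, rose by 0.24 ± 0.04, 0.41 ± 0.04 and 0.63 ± 0.04. In both genes all combination libraries were above all others. CD68, a scavenger receptor related to the LAMP proteins, had 46.0, 39.1 and 32.8 CPM in DMSO, 56.6, 58.5 and 61.5 with everolimus, 81.2, 77.0 and 113 with SGI-1027 and 102, 106 and 111 with both drugs. SGI-1027 replicate 3 had the highest CD68 level of all libraries, and the other SGI-1027 libraries lay between everolimus and the combination. CD68 rose by 0.58 ± 0.12, 1.20 ± 0.12 and 1.44 ± 0.12 (edgeR, adjusted p = 5.61e-09 for the combination). LAMP3, which marks mature dendritic cells, had 5, 5 and 3 counts in DMSO, 1, 0 and 4 with everolimus, 16, 13 and 17 with SGI-1027 and 18, 36 and 27 with both drugs. Its SGI-1027 and combination libraries were above all DMSO and everolimus libraries, with log2 fold changes against DMSO of 1.81 ± 0.51 and 2.61 ± 0.47 (edgeR, adjusted p = 0.00529 and 9.05e-05).

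CD68 and LAMP3 are also markers of macrophages and dendritic cells. The summed level of the leukocyte and macrophage markers, 6 of 8 listed being in the table, was 5.29 to 6.09 CPM in DMSO and 3.52 to 3.62 with the combination. CSF1R carried most of it, with means of 5.28 and 3.20 CPM, while CD14 had 0.246 and 0.0600, ITGAM 0.202 and 0.242 and CD163 0 and 0.0506, and PTPRC, which encodes the common leukocyte antigen CD45, had at most 1 count in any library. Of the dendritic cell list, 3 of 4 markers were in the table, and their sum went from 0.471 to 0.510 CPM in DMSO to 1.69 to 2.73 with the combination. Most of that was ITGAX, with a mean of 0.401 CPM in DMSO and 2.10 with both drugs. CCR7 went the other way, with means of 0.0781 CPM in DMSO and 0.0345 with both drugs, and CD1C had at most 1 count.

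Among the ion channels, TPCN1 and CLCN7 carried the largest differences. TPCN1 encodes TPC1, a cation channel of endosomes and lysosomes, and had 75.1, 70.9 and 73.2 CPM in DMSO, 155, 159 and 158 with everolimus, 154, 159 and 178 with SGI-1027 and 158, 168 and 169 with both drugs. Every treated library was more than 2 times the DMSO mean of 73.1 ± 2.11 (SD, n = 3), and the 3 treated groups overlapped. TPCN1 rose by 1.11 ± 0.05, 1.16 ± 0.05 and 1.17 ± 0.05 on the log2 scale (edgeR, adjusted p = 7.74e-13 for the combination), and the combination differed by 0.06 ± 0.05 from everolimus (edgeR, adjusted p = 0.320) and by 0.01 ± 0.05 from SGI-1027 (edgeR, adjusted p = 0.906). Its exons overlap IQCD on the opposite strand. CLCN7, a chloride and proton exchanger, had 94.2, 87.4 and 85.4 CPM in DMSO, 124, 122 and 131 with everolimus, 137, 138 and 152 with SGI-1027 and 174, 185 and 204 with both drugs. In contrast to TPCN1 its 4 ranges were separate and stepped upward to the combination, at 0.50 ± 0.06, 0.68 ± 0.06 and 1.08 ± 0.06 (edgeR, adjusted p = 1.68e-11 for the combination).

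The remaining channel genes moved less. MCOLN1, the calcium-permeable channel TRPML1, had 12.6, 11.4 and 12.3 CPM in DMSO, 9.73, 9.53 and 11.9 with everolimus, 10.9, 12.2 and 13.1 with SGI-1027 and 17.3, 14.7 and 15.2 with both drugs. Single-drug libraries overlapped the DMSO libraries and all combination libraries lay above them. MCOLN1 rose by 0.38 ± 0.09 with the combination (edgeR, adjusted p = 0.00170), and its differences with everolimus and SGI-1027 were -0.22 ± 0.10 and -0.01 ± 0.10. Its exons overlap PNPLA6 and AC008878.2 on the same strand. OSTM1, the partner that stabilises the CLCN7 protein, had a difference of 0.37 ± 0.06 with both drugs (edgeR, adjusted p = 4.02e-05), TPCN2, the paralogue of TPCN1, of 0.30 ± 0.08 (edgeR, adjusted p = 0.00283) and TMEM175, a potassium and proton channel, of 0.09 ± 0.11 (edgeR, adjusted p = 0.474). TMEM175 levels were 11.2, 9.86 and 10.5 CPM in DMSO, 12.9, 11.7 and 12.9 with everolimus, 12.2, 11.4 and 16.4 with SGI-1027 and 11.4, 10.8 and 11.4 with both drugs. Its SGI-1027 call (0.34 ± 0.11, edgeR, adjusted p = 0.0105) was lost without the high SGI-1027 replicate 3 (0.17, edgeR, adjusted p = 0.112).

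All 8 transporters rose with SGI-1027 and with the combination, with medians of 0.44 and 0.80, and 5 rose and 1 fell with everolimus. Of all tested genes 32.0%, 32.8% and 27.2% were called higher in these 3 comparisons, and 29.2% lower with everolimus. SLC15A3, which carries peptides and histidine, had 4.83, 5.88 and 4.90 CPM in DMSO, 7.03, 6.79 and 6.87 with everolimus, 16.8, 16.5 and 22.2 with SGI-1027 and 22.4, 26.5 and 25.7 with both drugs. The 4 ranges were separate, with SGI-1027 replicate 3 just under the lowest combination library. SLC15A3 rose by 0.40 ± 0.13, 1.83 ± 0.12 and 2.25 ± 0.11 (edgeR, adjusted p = 7.58e-12 for the combination), and its exons overlap TMEM132A on the opposite strand. Its paralogue SLC15A4 rose by 0.40 ± 0.04, 0.72 ± 0.04 and 0.97 ± 0.04 (edgeR, adjusted p = 8.19e-13 for the combination).

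CTNS encodes cystinosin, which exports cystine. It had 10.8, 9.37 and 10.3 CPM in DMSO, 11.7, 11.4 and 11.8 with everolimus, 15.2, 13.0 and 15.6 with SGI-1027 and 21.9, 22.3 and 22.8 with both drugs. The combination libraries were well above all others, and CTNS rose by 0.52 ± 0.08 with SGI-1027 (edgeR, adjusted p = 1.51e-05) and 1.13 ± 0.08 with both (edgeR, adjusted p = 4.14e-10). SLC17A5 encodes sialin, which exports sialic acid, and had 12.6, 14.8 and 15.1 CPM in DMSO, 22.5, 22.2 and 21.2 with everolimus, 25.0, 26.1 and 25.9 with SGI-1027 and 30.9, 33.9 and 30.8 with both drugs. Here too the 4 ranges were separate, and SLC17A5 rose by 0.63 ± 0.07, 0.86 ± 0.07 and 1.17 ± 0.07 (edgeR, adjusted p = 7.13e-11 for the combination).

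NPC1, which moves cholesterol out of the lysosome, had 194, 201 and 207 CPM in DMSO, 184, 176 and 180.4 with everolimus, 232, 232 and 228 with SGI-1027 and 280.2, 287 and 286 with both drugs. Its everolimus libraries were the lowest and its combination libraries the highest, without overlap of any groups. NPC1 fell by 0.15 ± 0.04 with everolimus (edgeR, adjusted p = 0.00138), and rose by 0.20 ± 0.04 with SGI-1027 (edgeR, adjusted p = 7.66e-05) and by 0.50 ± 0.04 with both (edgeR, adjusted p = 7.28e-10). Under upper-quartile scaling the everolimus difference was -0.08 and was not called (edgeR, adjusted p = 0.0641). SLC38A9, which senses arginine for mTORC1, had 6.55, 5.63 and 4.71 CPM in DMSO and 8.31, 9.00 and 8.65 with both drugs and rose by 0.62 ± 0.12 (edgeR, adjusted p = 1.79e-04). The lowest combination responses among transporters were those of MFSD8, whose loss causes a neuronal ceroid lipofuscinosis, at 0.31 ± 0.09 (edgeR, adjusted p = 0.00764), and MFSD1, a solute carrier of the lysosomal membrane, at 0.45 ± 0.07 (edgeR, adjusted p = 9.07e-06). MFSD8 had 10.1, 9.30 and 10.9 CPM in DMSO, 12.7, 11.3 and 10.7 with everolimus, 13.3, 13.5 and 11.8 with SGI-1027 and 11.3, 12.7 and 13.5 with the combination, and the treated groups overlapped.

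The last 2 members parted. CLN3, the protein lost in juvenile Batten disease, rose with the combination by 0.28 ± 0.06 (edgeR, adjusted p = 2.33e-04), with differences of -0.12 ± 0.06 and 0.03 ± 0.06 for the single drugs. TMEM192, a structural protein of the lysosomal membrane, had 11.9, 12.5 and 12.9 CPM in DMSO, 10.6, 10.3 and 10.6 with everolimus, 9.73, 9.05 and 9.54 with SGI-1027 and 9.46, 10.4 and 11.9 with both drugs. All everolimus and SGI-1027 libraries of TMEM192 were below those of DMSO. TMEM192 fell by 0.40 ± 0.08 with SGI-1027 (edgeR, adjusted p = 5.46e-04), and its combination difference (-0.23 ± 0.08, edgeR, adjusted p = 0.0214) lost the call without DMSO replicate 2 or 3 or combination replicate 1 or 2, with adjusted p up to 0.140 in edgeR.

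**Figure D3:**
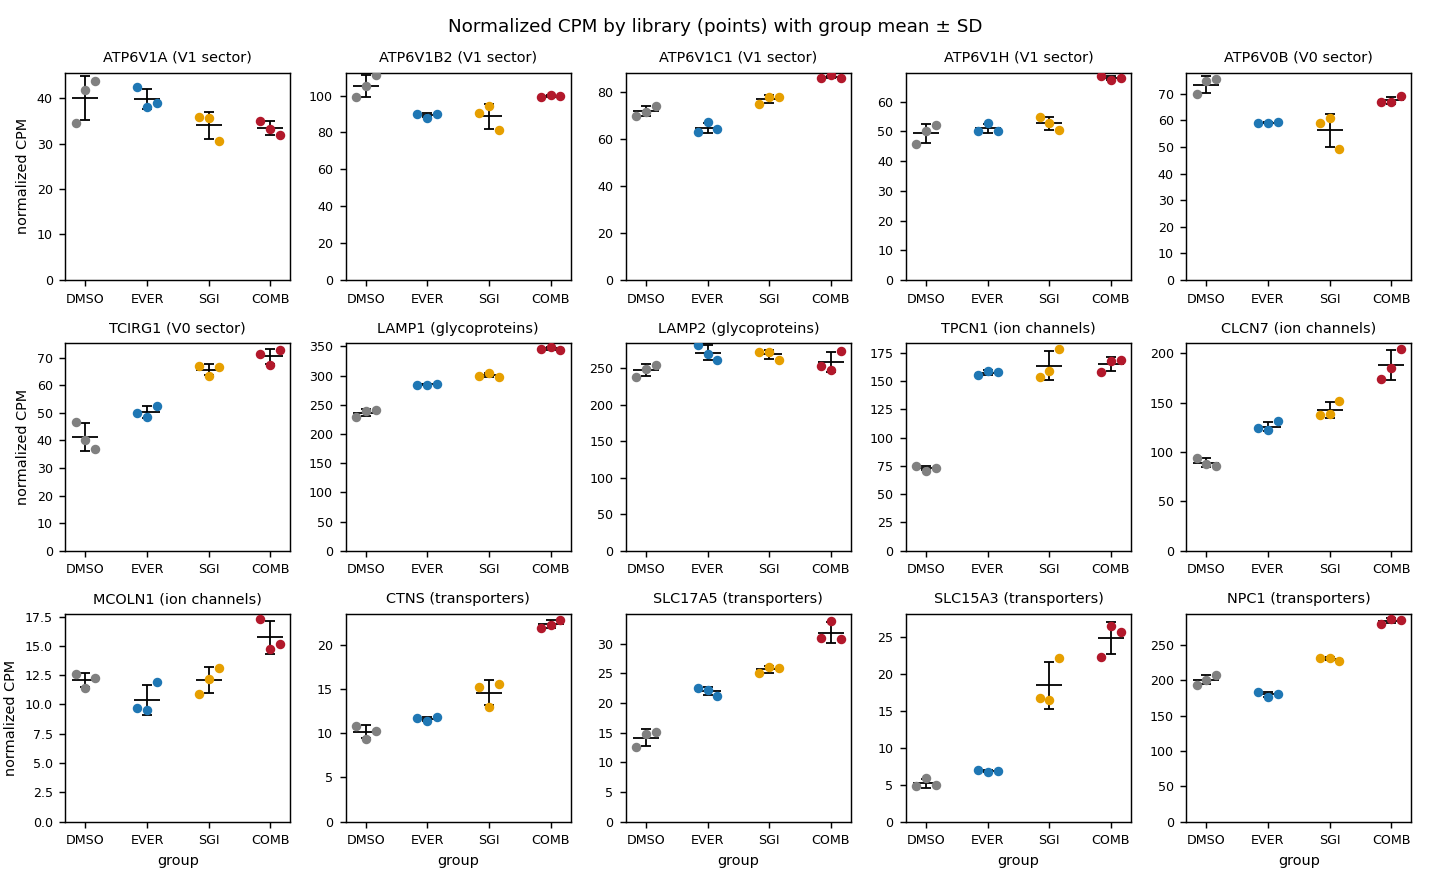
Normalized CPM (y axis, from 0) of 15 members in the 4 groups (x axis), with a point for each library and bars for the mean ± SD of 3 libraries. TPCN1 is equally high in the 3 treated groups, CTNS and ATP6V1H are highest with the combination, and ATP6V0B and ATP6V1B2 are lowest with single drugs.

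The proton pump responded less than the channels and transporters in all 3 treated groups. With the combination the median log2 fold change was 0.26 over 21 tested pump genes and 0.56 over 14 channels and transporters, a difference of -0.31. SGI-1027 gave 0.11 and 0.35 and everolimus -0.01 and 0.22, each a difference of -0.24. Ion channels alone had medians of 0.21 with everolimus, 0.25 with SGI-1027 and 0.38 with both drugs. Transporters had 0.27, 0.44 and 0.80 in the same order, and the 2 accessory genes of the pump 0.18, 0.29 and 0.39. In single libraries the combination medians, relative to the DMSO mean, were 0.26, 0.28 and 0.28 for the pump and 0.54, 0.60 and 0.57 for channels and transporters. In the everolimus libraries they were 0.02, -0.03 and -0.00 for the pump and 0.31, 0.17 and 0.23 for channels and transporters, and in the SGI-1027 libraries 0.10, 0.09 and 0.15 against 0.39, 0.39 and 0.42. These library medians of the pump and of channels and transporters did not overlap in any treated group. The SD of their difference between libraries of a group, pooled over all 4 groups, was 0.029. The genes themselves overlapped: with the combination their log2 fold changes ran from -0.27 to 2.77 in the pump and from 0.09 to 2.25 in channels and transporters. Under upper-quartile scaling the everolimus medians were 0.06 and 0.30, so the sign of the pump median under everolimus depended on the scaling while the gap remained -0.24. These medians are given with no p because the members were chosen with earlier results of these data known.

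**Figure D4:**
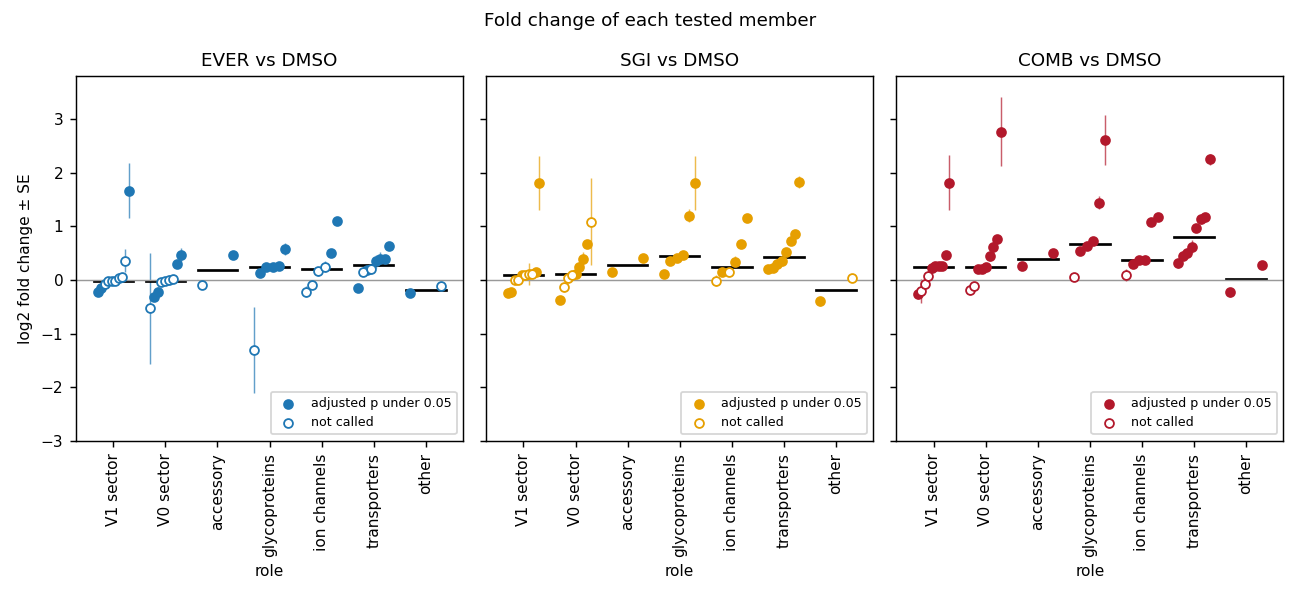
Log2 fold change ± SE against DMSO (y axis) of the 43 tested members by role (x axis) for everolimus (EVER), SGI-1027 (SGI) and the combination (COMB), with filled points for members called at an adjusted p under 0.05 and black lines for role medians. Transporters have the highest median with the combination, 0.80, and both pump sectors have 0.24.

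Calls showed the same contrast as a description. With the combination 13 of 14 channels and transporters rose and none fell, and 15 of 21 pump genes rose and 1 fell. With SGI-1027 12 of 14 rose and none fell, against 9 that rose and 3 that fell of 21, and with everolimus 7 of 14 rose and 1 fell, against 4 and 4 of 21. Over all tested genes 32.8% were called higher and 33.4% lower with the combination, 32.0% and 30.6% with SGI-1027 and 27.2% and 29.2% with everolimus. The pump shares with everolimus, 4 of 21 in each direction, both lay below these, by few genes.

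**Figure D5:**
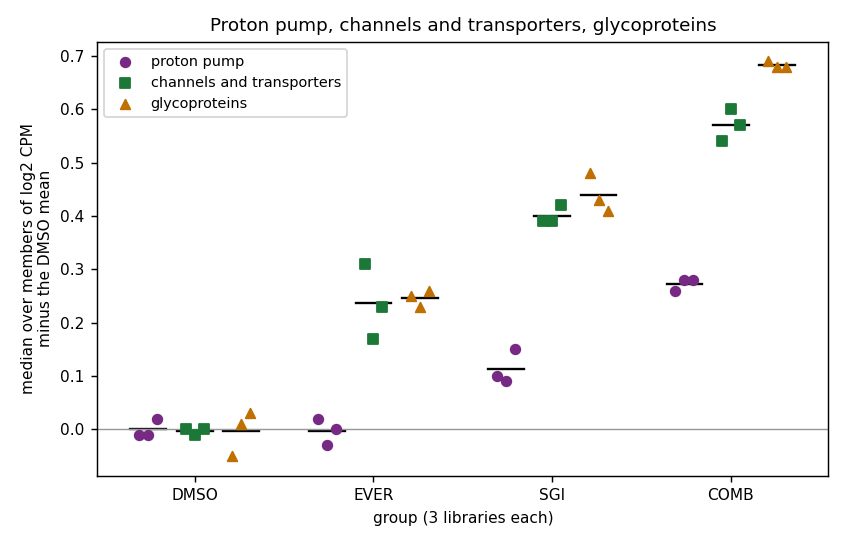
Median over members of log2 normalized CPM minus the DMSO mean (y axis) for the proton pump, channels and transporters, and glycoproteins in each library, with lines for the mean of 3 libraries in each group (x axis). The pump lies at 0.26 to 0.28 with the combination, below channels and transporters at 0.54 to 0.60 and glycoproteins at 0.68 to 0.69.

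In summed FPKM, a level scaled by gene length, the pump again changed least with each treatment, while channels and transporters were higher than in DMSO by a larger factor than glycoproteins, the reverse of the order of their medians. The pump genes summed to 695 ± 17.1 FPKM (SD, n = 3) in DMSO, 678 ± 4.07 with everolimus, 715 ± 8.25 with SGI-1027 and 795 ± 10.6 with both drugs. Channels and transporters summed to 111 ± 1.16, 139 ± 1.05, 162 ± 3.88 and 197 ± 5.04, and glycoproteins to 404 ± 9.03, 488 ± 4.71, 557 ± 8.11 and 661 ± 2.37. Within the set CD63 (198 FPKM), ATP6V0E1 (104) and LAMP1 (102) had the highest mean FPKM in DMSO, and the highest channel and transporter were CLCN7 (19.7) and NPC1 (26.7).

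The combination was then set against each single drug. Against everolimus 29 members were higher and 2 lower, where 20.1% and 19.2% of all tested genes were called. Against SGI-1027 21 were higher and 0 lower, where 9.40% and 10.2% of all genes were called. At an unadjusted p under 0.05 edgeR placed 1 member lower than with SGI-1027, TMEM175 (-0.25 ± 0.11), and DESeq2 called 0 lower there. The rises against SGI-1027 covered 8 of 21 pump genes, 9 of 14 channels and transporters and 3 of 6 glycoproteins. CTNS had the largest among those above 1 CPM (0.61 ± 0.07, edgeR, adjusted p = 9.98e-06), followed by SLC15A3 (0.42 ± 0.10, edgeR, adjusted p = 0.00565), CLCN7 (0.40 ± 0.06, edgeR, adjusted p = 5.88e-05), MCOLN1 (0.39 ± 0.10, edgeR, adjusted p = 0.00687) and ATP6V1H (0.36 ± 0.05, edgeR, adjusted p = 4.90e-05). In 19 of 43 members the combination was called higher than DMSO, everolimus and SGI-1027 alike, as it was in 6.46% of all tested genes, and these 3 comparisons share the combination libraries. Of the 19 members, 9 were channels or transporters and 6 pump genes.

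An interaction term asked whether the combination differed from the sum of both single-drug log2 fold changes. It was called above 0 in 12 members and below 0 in 5, and over all tested genes in 23.6% and 22.1%. Those above 0 were led by MCOLN1 (0.61 ± 0.14, edgeR, adjusted p = 0.00141) and ATP6V0B (0.58 ± 0.09, edgeR, adjusted p = 3.33e-05), and those below 0 by TPCN1 (-1.10 ± 0.07, edgeR, adjusted p = 1.83e-09) and TMEM175 (-0.50 ± 0.15, edgeR, adjusted p = 0.0125), which was -0.32 without SGI-1027 replicate 3 (edgeR, adjusted p = 0.0298). The TPCN1 value restates its levels: its fold over DMSO stood at 2.16 with everolimus, 2.24 with SGI-1027 and 2.26 with both. Pump genes made up 6 of the 12 above 0 (ATP6V0B, ATP6V1B2, ATP6V1C1, ATP6V1F, ATP6V1H and ATP6AP1). That is about their share of the set, 21 of 43 tested members. Of the 6, ATP6V0B and ATP6V1B2 fell with each single drug and were not called with both. Under upper-quartile scaling the interaction was called above 0 in 11 members and below 0 in 11, while the higher calls over all genes went from 51.7% to 39.5% of calls. Without DMSO replicate 1 the counts were 13 and 8.

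Not every call held when a single library was left out, in 12 fits each without a different library. With everolimus against DMSO 16 of 22 called members held in all 12 fits, with SGI-1027 20 of 31, with the combination 32 of 36, for the combination against everolimus 26 of 31, against SGI-1027 14 of 21, and for the interaction 16 of 17. The least secure were CTNS with everolimus (0.19 ± 0.08, lost in 9 fits, adjusted p up to 0.201 in edgeR), and OSTM1 (0.15 ± 0.06, up to 0.226), SLC38A9 (0.29 ± 0.12, up to 0.212) and ATP6V1C1 (0.10 ± 0.04, up to 0.129) with SGI-1027, lost in 9, 9 and 8 fits. Also with SGI-1027, ATP6V1A (-0.23 ± 0.08) and ATP6V0E1 (0.11 ± 0.04) were lost without DMSO replicate 2 or 3 or SGI-1027 replicate 3 (as low as -0.16 and 0.08 in size), ATP6V1G1 without DMSO replicate 1 (0.10) or SGI-1027 replicate 2 (0.13) or 3 (0.14), ATP6V0A1 without DMSO replicate 3 (0.21) or SGI-1027 replicate 3 (0.13), and MFSD1 without SGI-1027 replicate 1 (0.15). With everolimus, SLC38A9 was lost without DMSO replicate 3 (0.24) or everolimus replicate 1 (0.30), and TMEM192 without DMSO replicate 3 (-0.21) or everolimus replicate 2 (-0.23). With the combination, ATP6V0D1 was lost without combination replicate 3 (0.14 in place of 0.20 ± 0.06, edgeR, adjusted p = 0.0636). Against everolimus, ATP6V0A2, ATP6V1A, ATP6V0B, ATP6V1B2 and ATP6V1E2 were lost in 6, 3, 3, 2 and 6 fits without an everolimus, SGI-1027 or combination library, with adjusted p up to 0.168. Against SGI-1027, ATP6V0D2, ATP6V0E1, ATP6V1B2, ATP6V1E1, ATP6V1F, MFSD1 and OSTM1 were lost in 3 to 6 fits without an SGI-1027 or combination library, with adjusted p up to 0.172. No call changed its sign in any fit.

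Other genes of the pathway were counted from 4 lists of symbols, of which 47 were tested. With the combination 26 of them rose and 9 fell, with SGI-1027 24 and 6, and with everolimus 21 and 7, beside 32.8% and 33.4%, 32.0% and 30.6%, and 27.2% and 29.2% of all tested genes. Among 32 further lysosomal membrane proteins 21 rose and 6 fell with the combination, with a median log2 fold change of 0.32. Of 11 assembly and regulation factors of the V-ATPase, 6 rose with everolimus, 5 with SGI-1027 and 5 with both, and none fell. Their medians were 0.23, 0.17 and 0.12 in that order, lowest with the combination. The channel MCOLN3, a paralogue of MCOLN1, rose by 2.02 ± 0.20 (edgeR, adjusted p = 6.73e-08), the ATP-gated channel P2RX4 by 1.23 ± 0.06 (edgeR, adjusted p = 5.20e-12) and the amino acid transporter SLC36A1 by 0.82 ± 0.08 (edgeR, adjusted p = 7.49e-08), whereas LAPTM5, a lysosomal protein best known from blood cells, fell by 0.99 ± 0.09 (edgeR, adjusted p = 2.99e-08). DMXL2, a rabconnectin that promotes assembly of V1 with V0, rose by 0.39 ± 0.05 (edgeR, adjusted p = 3.33e-06), while its partner WDR7 differed by -0.04 ± 0.07 and the assembly factor VMA21 by 0.12 ± 0.07. Of the MiT/TFE factors 3 of 4 were tested, and TFEC was not. With the combination these transcripts fell: MITF by 0.52 ± 0.07 (edgeR, adjusted p = 2.91e-06), TFE3 by 0.48 ± 0.05 (edgeR, adjusted p = 3.13e-08) and TFEB by 0.43 ± 0.08 (edgeR, adjusted p = 1.36e-04). MITF alone of them rose with everolimus (0.28 ± 0.07, edgeR, adjusted p = 0.00161) and with SGI-1027 (0.23 ± 0.07, edgeR, adjusted p = 0.00515), where TFE3 fell by 0.23 ± 0.05 and 0.32 ± 0.05. TFEB fell by 0.20 ± 0.08 with everolimus (edgeR, adjusted p = 0.0387), a call lost under upper-quartile scaling (-0.13, edgeR, adjusted p = 0.177), and differed by -0.18 ± 0.08 with SGI-1027. These factors are controlled largely through their phosphorylation and place in the cell, which RNA counts do not measure.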

How the data were processed

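RNA of 786-O cells was sequenced in 12 libraries, 3 in each of 4 groups. For each gene symbol the authors deposited a raw count, a whole number, and an FPKM value, and the FPKM values were here found to equal the count scaled by library total and 1 fixed length per gene. The aligner, the counting program and the use of strand in counting are not given in the sources used here. The submitters' processing notes list GRCm38 and mm10, which are mouse builds, although cells and symbols are human, so no gene coordinate was taken from the files. The study describes TRIzol extraction and a TruSeq Stranded kit, the sample records an RNeasy and a SMARTER kit.

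Tests were run on the counts with edgeR 4.0.16 in R 4.3.3 (filterByExpr, TMM, 1 quasi-likelihood fit of all 12 libraries by group, 8 residual degrees of freedom, prior count 0.125). Of 17085 genes, 12841 were tested and 4244 were not. A call was a Benjamini-Hochberg adjusted p under 0.05 over all tested genes. The study names no test, only its cut-off. The interaction was the combination fold change minus the sum of both single-drug fold changes on the log2 scale. The procedure was tested on simulated data, in which few genes, all well counted, were changed in the combination only. Of 100 genes changed by a log2 of 0.5 in size, 84 were recovered, and of 100 changed by 1, 96. There were 11 false calls over 12757 genes. Low counts and changes as widespread as in these data were not covered. At 37046231 to 41516976 counts per library the spread of 3 libraries set the precision for all but the lowest members.

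The members and all lists were chosen with earlier results of these data known. Library values were meant for LAMP1 and LAMP2, members past the study's cut-off, all alternative subunits, and the 2 highest and 2 lowest called interactions. They were also meant for the 2 highest and 2 lowest called members of the pump and of channels and transporters with the combination. TPCN2, ATP6V0D1, ATP6V0E1, ATP6V1E1 and ATP6V1G1 fell under this rule but were given without them. ATP6V1E2 and the treated libraries of ATP6V1C2 were given only as ranges. Values of further members were given after they had been seen. Alternatives were DESeq2 1.42.0, upper-quartile scaling, testing without the low-count filter, a minimum of 10 counts in each library, a replicate block, fits of 2 groups, limma-trend (limma 3.58.1) on log2(FPKM + 1) and log2(FPKM + 0.1), and leaving out each library. Promoters were RefSeq windows, and exon overlaps and pseudogene names came from GENCODE release 29, where exons of 10 members overlap another gene on the same strand and those of 21 on the opposite strand.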

Additional observations from a re-analysis of the deposited data

Results flagged for a closer look

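For 17 members the effect of adding SGI-1027 differed between cells with and without everolimus, by the interaction term in edgeR (quasi-likelihood test, Benjamini-Hochberg adjustment over all tested genes). In 12 of them the combination lay above the sum of the log2 fold changes of both drugs alone, with interactions of 0.61 for MCOLN1, 0.58 for ATP6V0B, 0.45 for NPC1, 0.42 for CTNS, 0.41 for TMEM192 and for ATP6V1B2, 0.37 for CLN3, 0.32 for ATP6V1H, 0.31 for ATP6V1C1, OSTM1 and ATP6V1F, and 0.21 for ATP6AP1. In 5 it lay below that sum, with -1.10 for TPCN1, -0.50 for TMEM175, -0.38 for ATP6AP2, -0.32 for SLC17A5 and -0.19 for LAMP2. Over all tested genes 23.6% were called above and 22.1% below. The TMEM175 interaction was -0.32 without SGI-1027 replicate 3 (edgeR, adjusted p = 0.0298). The ATP6AP1 interaction lost its call under upper-quartile scaling (0.14, edgeR, adjusted p = 0.0864), and the LAMP2 interaction lost it without everolimus replicate 1 (-0.16, edgeR, adjusted p = 0.0553) or combination replicate 2 (-0.16, edgeR, adjusted p = 0.0599). Groups of 3 libraries were too small for a check of single outlying values.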

How the results depend on the processing

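Of 158 calls of members over the 6 comparisons, 121 held in all 20 alternatives, 37 did not, and none of the 158 was reversed. Of 100 values that were not called, 39 were called in at least 1 alternative. In 31 values the sign changed in some alternative, none of them called in either fit.

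Under upper-quartile scaling the members called lower were 2 with everolimus, 1 with the combination and 11 for the interaction. Fits of the 2 groups compared gave 4 lower with the combination, and limma-trend on log2(FPKM + 0.1) gave 1. The count past the study's cut-off with everolimus was 1 with at least 10 counts in every library, in fits of 2 groups and with limma-trend at either pseudocount. With SGI-1027 that count was 3 with at least 10 counts and with limma-trend on log2(FPKM + 1), which gave 5 with the combination. That setting also gave pump medians minus those of channels and transporters of -0.18 with everolimus, -0.16 with SGI-1027 and -0.23 with both, since a pseudocount of 1 shrinks the low members. With 1 library left out these differences ranged from -0.28 to -0.20, -0.30 to -0.19 and -0.35 to -0.28. The members called lower then numbered 1 to 4 for the combination against DMSO, 0 to 2 against everolimus and 0 to 1 against SGI-1027, and 4 to 8 for the interaction. The members with every combination library above all others numbered 23 to 26, and 25 on deposited FPKM, an alternative chosen after seeing the data.

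Replicate numbers did not pair libraries: of 18 pairs with the same number, 3 had deviations correlated above 0.1 (range -0.53 to 0.18), and 7 correlated best with their own number. With the replicate block 17 members rose and 5 fell with everolimus, 25 and 4 with SGI-1027 and 34 and 2 with the combination. Depth limits ATP6V0D2, ATP6V1G2, LAMP3 and ATP6V1C2, with at most 36 counts in a library. The causes of these shifts were otherwise not tested.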
